A study of Mus musculus with 8 samples.

Results

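Immediate early genes are transcribed within minutes of a stimulus from factors already present in the cell, without new protein synthesis. In granulosa cells, the somatic cells that line the ovarian follicle, luteinising hormone acts through cyclic AMP and MAP kinases on CREB and on serum response factor, and a first wave of such genes follows. The EGR genes encode zinc finger transcription factors that bind GC-rich sites, and the NR4A genes encode orphan nuclear receptors that act without a known hormone. Others of the class encode brakes on the same signal, such as the phosphatase DUSP1 and the mRNA decay factor ZFP36. The 10 genes described here are Egr1, Egr2, Egr3, Nr4a1, Nr4a2, Nr4a3, Ier2, Ier3, Dusp1 and Zfp36, taken by symbol from a table of 51886 genes; all 10 were found, and all 10 were among the 14472 genes tested.

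The libraries came from peri-ovulatory granulosa cells of the PGR-A KO mouse strain, 4 from knockout mice (PGR-A KO, named for the A isoform of the progesterone receptor) and 4 from wild-type (WT) mice. All mice, aged 21 to 27 days, had received 5 IU eCG, 5 IU hCG 46 h later, and cells were taken 8 h after hCG, so no library precedes the hormone and none is untreated. Each library pooled cells from 2 to 3 mice. Values are TPM, a transcript abundance scaled for length and library size, so that levels can be compared between genes; sequencing depth is unknown. How the knockout was made is not given in the labels.

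Libraries correlated at 0.970 to 0.991 on the log2 scale and none were identical. Pgr ranged from 2.01 to 3.52 TPM in PGR-A KO and from 0.756 to 1.56 TPM in WT; a gene-level value does not separate the isoforms and so does not check the labels. All 11 granulosa markers were present, with summed levels of 4690 to 5932 TPM in PGR-A KO and 5055 to 7458 TPM in WT. By mean on the log2 scale, 10 of them were lower and 1 higher in PGR-A KO. Of the 14472 genes tested, 8303 were lower and 6169 higher. Of the granulosa markers 0 passed the test used below. The most abundant, the inhibin subunit gene Inha, averaged 3552 ± 515 TPM in PGR-A KO and 4063 ± 549 TPM in WT (SD, n = 4 each). In pooled tissue, fewer cells of a type and less RNA per cell cannot be told apart. Markers of other cells were present too, oocyte markers summing to 737 to 1316 TPM in PGR-A KO and 530 to 1003 TPM in WT. All 9 oocyte markers had a higher log2 mean in PGR-A KO, and 0 passed.

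RefSeq promoter windows on GRCm38.p6 were matched for 7 of the 10 genes (Egr2, Nr4a1, Nr4a2, Nr4a3, Ier3, Dusp1 and Zfp36), and the 250 bases upstream of the start were searched on both strands. The motifs were the cyclic AMP response element TGACGTCA, its core TGACG, the CArG box bound by serum response factor, the EGR site GCGGGGGCG and the NR4A monomer site AAAGGTCA. Each of the 3 NR4A promoters held 4 cores, a number reached in 0.137% of all 32851 windows and in 0.286% of the 13654 windows of tested genes; at least 1 core was held by 17.8% of all windows and 25.6% of those of tested genes. The NR4A windows are shown because they share this feature; capitals mark the core, which reads CGTCA where it lies on the opposite strand.
Nr4a1, chr15:101266608-101266813, plus strand: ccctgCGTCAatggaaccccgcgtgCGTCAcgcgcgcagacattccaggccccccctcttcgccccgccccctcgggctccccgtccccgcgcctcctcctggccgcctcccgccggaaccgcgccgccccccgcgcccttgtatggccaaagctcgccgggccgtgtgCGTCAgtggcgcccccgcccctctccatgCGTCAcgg
Nr4a2, chr2:57124107-57124208, minus strand: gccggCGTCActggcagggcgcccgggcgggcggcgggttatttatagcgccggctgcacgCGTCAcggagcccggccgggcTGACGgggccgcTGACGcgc
Nr4a3, chr4:48045069-48045165, plus strand: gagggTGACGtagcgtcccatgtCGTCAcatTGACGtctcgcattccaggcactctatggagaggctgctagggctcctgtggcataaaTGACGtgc

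Dusp1 held the full cyclic AMP response element, found in 1.55% of all windows and 2.45% of those of tested genes, and 2 of its 3 cores are the overlapping arms of that element. Zfp36 held a CArG box and Egr2 held more than 1. A box was found in 1.47% of all windows and 1.16% of those of tested genes. Egr2 had 5 of the 11 windows searched and the other 6 genes 1 each, so a share per window understates its chance of a match. The Egr2 window from 67537316 to 67537615 held a box other than the one shown. The Zfp36 and Nr4a1 windows also held 1 EGR site each, found in 2.57% of all windows and 4.69% of those of tested genes, and none of the 7 genes held AAAGGTCA, found in 1.34% and 0.967%. Ier3 held none of the 5 motifs. The Nr4a3 and Zfp36 stretches shown overlap an annotated GENCODE exon. These matches are descriptions of sequence, and no binding was measured. In the following windows the capitals mark the cyclic AMP response element of Dusp1 and 1 CArG box each of Zfp36 and Egr2.
Dusp1, chr17:26508582-26508641, minus strand: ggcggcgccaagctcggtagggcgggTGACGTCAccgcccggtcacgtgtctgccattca
Zfp36, chr7:28379267-28379296, minus strand: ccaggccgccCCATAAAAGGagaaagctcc
Egr2, chr10:67537772-67537831, plus strand: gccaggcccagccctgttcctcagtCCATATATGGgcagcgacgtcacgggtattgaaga

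Most of the genes are short. In the GENCODE M21 annotation of mm10, the coding transcript chosen for each member (longest coding sequence) spanned a median of 4741 bp, against 22458 bp over 12606 tested protein-coding genes. The longest were Nr4a3, at 37334 bp (percentile 66.1 of those genes), and Nr4a1, at 20527 bp (percentile 47.2). Of the 10, 6 had at most 3 exons, against 12.9% of all tested protein-coding genes; Ier2 has a single exon and the 3 NR4A genes have 8 each. They lie on 9 chromosomes, with only Ier3 (chromosome 17, 35821684 to 35822923) and Dusp1 (chromosome 17, 26505590 to 26562128) sharing one. Egr2 lies on chromosome 10 (67535475 to 67542188) and Egr3 on 14 (70077203 to 70082614). Nr4a1 lies on chromosome 15 (101254269 to 101274795), Nr4a2 on 2 (57106830 to 57124003) and Nr4a3 on 4 (48045153 to 48086447). Ier2 lies on chromosome 8 (84661331 to 84662852) and Zfp36 on 7 (28376784 to 28380253).

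AU-rich 3′ untranslated regions mark many short-lived mRNAs, and ZFP36 binds the nonamer TTATTTATT there (written with T for U). Dusp1 held 2 such nonamers and Zfp36 itself held 1, and the other 8 members held none; 6.93% of tested protein-coding genes held at least 1. Among genes with a 3′ untranslated region within 1.5 times the length of theirs, 4.87% for Dusp1 and 5.41% for Zfp36 held one. Ier3 had no nonamer but 5 copies of the ATTTA pentamer in 613 bases, a number reached by 2.77% of genes with a region of similar length. A site of each gene is shown, for Dusp1 the one with most pentamers, with the nonamer in capitals.
Dusp1: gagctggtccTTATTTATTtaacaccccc
Zfp36: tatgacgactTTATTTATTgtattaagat

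The members covered a wide range of levels. The order was the same in both genotypes except that Ier3 stood above Ier2 in PGR-A KO and below it in WT, and Nr4a3 above Nr4a2 in PGR-A KO and below it in WT. Egr1 stood highest, at 104 ± 19.1 TPM in PGR-A KO and 131 ± 54.1 TPM in WT (SD, n = 4 each). In PGR-A KO Ier3 was level with Egr1, at 104 ± 34.8 TPM, and above it in replicates 1 and 2. Nr4a2 was near the detection filter, at 0.9005 ± 0.194 TPM in PGR-A KO and 1.23 ± 0.219 TPM in WT (SD, n = 4 each). Over all 8 libraries the order of mean TPM was Egr1 (117), Ier3 (96.0), Ier2 (84.8), Zfp36 (65.1), Nr4a1 (41.2), Dusp1 (29.98), Egr3 (15.9), Egr2 (3.03), Nr4a2 (1.06) and Nr4a3 (1.04). Of the 9 pairs of neighbours in this order, 3 did not differ beyond their spread in an exact sign-flip permutation test over 8 libraries adjusted over the 9 pairs. These were Egr1 and Ier3 (adjusted p = 0.0703, higher in 6 of 8 libraries), Ier3 and Ier2 (0.176, 6 of 8) and Nr4a2 and Nr4a3 (0.906, 4 of 8). The other 6 pairs had adjusted permutation p of 0.0176 to 0.0352.

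No member differed between PGR-A KO and WT past the threshold. Of all tested genes 0.0138% passed limma at an adjusted p under 0.05; of the 10 members 0 passed, the lowest adjusted p being 0.800 for Nr4a2. At an unadjusted p under 0.05, 6.31% of all genes and 0 of the members passed. Groups did not overlap in 3.42% of all genes and in 0 of the members. On log2(TPM + 1), the mean of PGR-A KO less that of WT was above 0 in 4 members and below 0 in 6. For all 14472 genes tested it was above 0 in 6169 and below 0 in 8303. The median was -0.17 for the members, against -0.023 over all genes. With 4 libraries in each group these results do not show that the genotypes are alike: the 95% interval of Ier2 ran from -1.14 to 0.43.

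**Figure D1:**
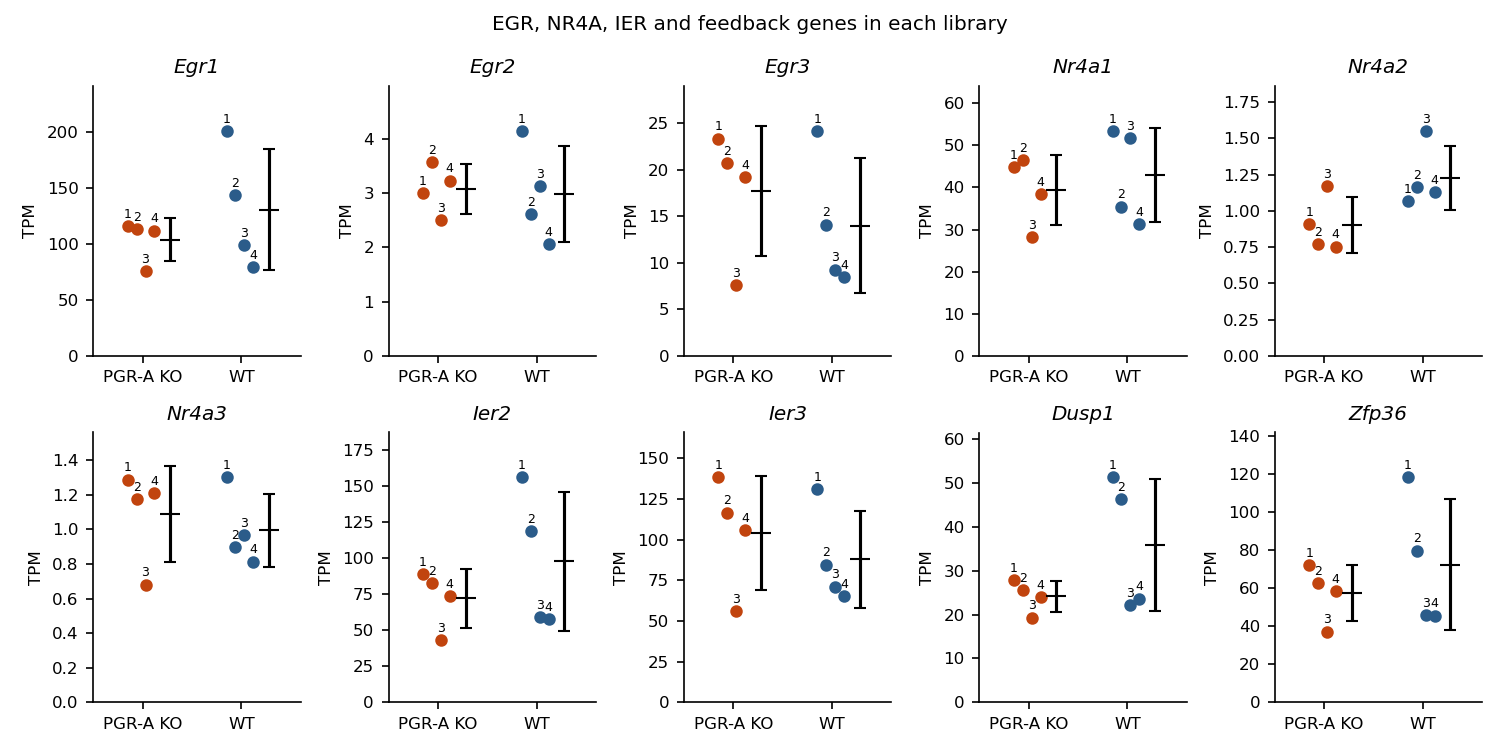
TPM of the 10 members in each library; each panel is a gene, each point a library with its replicate number, PGR-A KO left and WT right, and the bars are the mean and SD (n = 4). PGR-A KO replicate 3 is the lowest library for 8 members and WT replicate 1 the highest for 8, and the groups overlap in every panel.

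The EGR transcription factors overlapped between the genotypes. Egr1, which luteinising hormone induces in the ovary, lies on chromosome 18 (34859823 to 34864984). It had 116, 113, 75.5 and 112 TPM in PGR-A KO replicates 1 to 4, against 201, 144, 98.9 and 79.5 TPM in WT replicates 1 to 4. WT replicates 1 and 2 lay above all PGR-A KO libraries and WT replicates 3 and 4 below 3 of them. The log2 change was -0.26 (SE 0.27, limma adjusted p = 0.908; exact permutation p = 0.486).

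Egr2, known for its part in Schwann cell myelination, was low. Egr2 had 3.00, 3.58, 2.496 and 3.23 TPM in PGR-A KO and 4.14, 2.62, 3.13 and 2.06 TPM in WT. The groups overlapped almost wholly, with a log2 change of 0.051 (SE 0.17, limma adjusted p = 0.968). Egr3, needed for muscle spindle development, had 23.3, 20.7, 7.61 and 19.2 TPM in PGR-A KO, against 24.2, 14.1, 9.28 and 8.49 TPM in WT. High libraries were 3 of PGR-A KO and the first of WT, and PGR-A KO replicate 3 was the lowest of all 8. The log2 change of Egr3 was 0.33 (SE 0.39, limma adjusted p = 0.918; exact permutation p = 0.514). With WT replicate 1 and PGR-A KO replicate 3 left out, the highest WT and the lowest PGR-A KO library of Egr3, it was 0.95 (SE 0.18, limma adjusted p = 0.0223). That choice of libraries moves the difference up by construction, and 8.01% of all genes tested passed in the same fit, 3.84% as higher in PGR-A KO.

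Among the NR4A receptors Nr4a1 stood far above Nr4a2 and Nr4a3. Nr4a1, also called Nur77, had 44.9, 46.4, 28.1 and 38.5 TPM in PGR-A KO and 53.4, 35.4, 51.6 and 31.3 TPM in WT. Both groups held high and low libraries, and the log2 change was -0.11 (SE 0.21, limma adjusted p = 0.952). Nr4a2, also called Nurr1 and needed for midbrain dopamine neurons, had 0.908, 0.769, 1.17 and 0.753 TPM in PGR-A KO, against 1.07, 1.16, 1.55 and 1.13 TPM in WT. PGR-A KO replicates 1, 2 and 4 lay below every WT library, and replicate 3 within them. The difference for Nr4a2 on the log2 scale was -0.23 (SE 0.13, limma adjusted p = 0.800; exact permutation p = 0.114). Without PGR-A KO replicate 3 the exact permutation p of Nr4a2 was 0.0286, the smallest that 3 against 4 libraries allow. Replicate 3 was the only PGR-A KO library within the WT range, so leaving it out gives this p by construction. In that fit 0 members passed limma.

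Nr4a3, also called NOR-1, had 1.29, 1.18, 0.681 and 1.21 TPM in PGR-A KO and 1.30, 0.897, 0.966 and 0.814 TPM in WT. It reached 1 TPM in 4 of the 8 libraries, the fewest that the filter accepts, and the log2 change was 0.063 (SE 0.14, limma adjusted p = 0.955).

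Neither IER gene passed. Ier2, a nuclear protein of the first response, had 88.8, 82.4, 43.2 and 73.4 TPM in PGR-A KO, against 156, 118, 59.1 and 57.6 TPM in WT. WT replicates 1 and 2 lay above all PGR-A KO libraries and the other WT libraries within them. Ier3, which acts on cell survival, had 138, 116, 55.8 and 106 TPM in PGR-A KO, against 131, 84.6, 71.0 and 65.1 TPM in WT. In Ier3 PGR-A KO replicates 1, 2 and 4 and the first WT library were high. The log2 changes were -0.35 (SE 0.35, limma adjusted p = 0.903) for Ier2 and 0.22 (SE 0.29, limma adjusted p = 0.932) for Ier3, and that of Ier2 turned to 0.17 with array weights. With WT replicate 1 and PGR-A KO replicate 3 left out, again the highest WT and the lowest PGR-A KO library, Ier3 had a log2 change of 0.70 (limma adjusted p = 0.0209), in the fit where 8.01% of all genes passed; here too the choice moves the difference up by construction.

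The feedback genes had the highest values in WT replicates 1 and 2. Dusp1, whose product removes phosphate from MAP kinases, had 27.8, 25.5, 19.3 and 24.0 TPM in PGR-A KO, against 51.2, 46.3, 22.2 and 23.6 TPM in WT. WT replicates 1 and 2 stood apart from the other 6 libraries, which lay between 19.3 and 27.8 TPM. Zfp36, whose product tristetraprolin binds AU-rich mRNAs, had 72.2, 62.9, 37.2 and 58.6 TPM in PGR-A KO, against 118, 79.9, 46.0 and 45.7 TPM in WT. In Zfp36 too, WT replicates 1 and 2 were the highest, and the other WT libraries lay within the range of PGR-A KO. The log2 changes were -0.47 (SE 0.27, limma adjusted p = 0.807; exact permutation p = 0.314) for Dusp1 and -0.25 (SE 0.32, limma adjusted p = 0.928) for Zfp36. With WT replicates 1 and 2 left out, the highest libraries of both genes, a choice that moves the difference up by construction, the log2 change was 0.061 for Dusp1 and 0.29 for Zfp36.

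**Figure D2:**
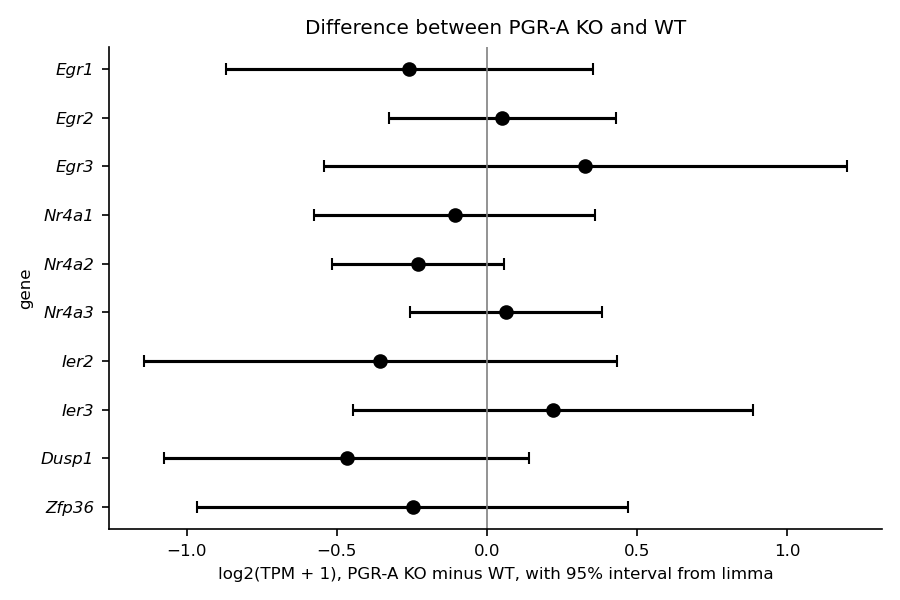
Difference between PGR-A KO and WT for each member; the x axis is the difference of mean log2(TPM + 1), PGR-A KO minus WT, points are the limma estimates and bars their 95% intervals (4 libraries each). All 10 intervals include 0, from Dusp1 at -0.47 to Egr3 at 0.33.

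Variation over the 8 libraries was large for most members. The SD of log2(TPM + 1) over all libraries was 0.64 for Egr3, 0.59 for Ier2, 0.52 for Zfp36, 0.49 for Dusp1, 0.48 for Ier3, 0.45 for Egr1 and 0.33 for Nr4a1. Set among the 1000 tested genes nearest in mean, these 7 lay between percentile 90.9 (Nr4a1) and 99.2 (Ier2). Egr2, Nr4a2 and Nr4a3, the 3 lowest genes, lay at percentiles 44.6, 28.7 and 24.4. On average over the 10 members, PGR-A KO replicates 1 to 4 deviated from the gene means by 0.19, 0.11, -0.51 and 0.011, and WT replicates 1 to 4 by 0.58, 0.15, -0.16 and -0.36. The highest and the lowest library were thus WT replicate 1 and PGR-A KO replicate 3.

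**Figure D3:**
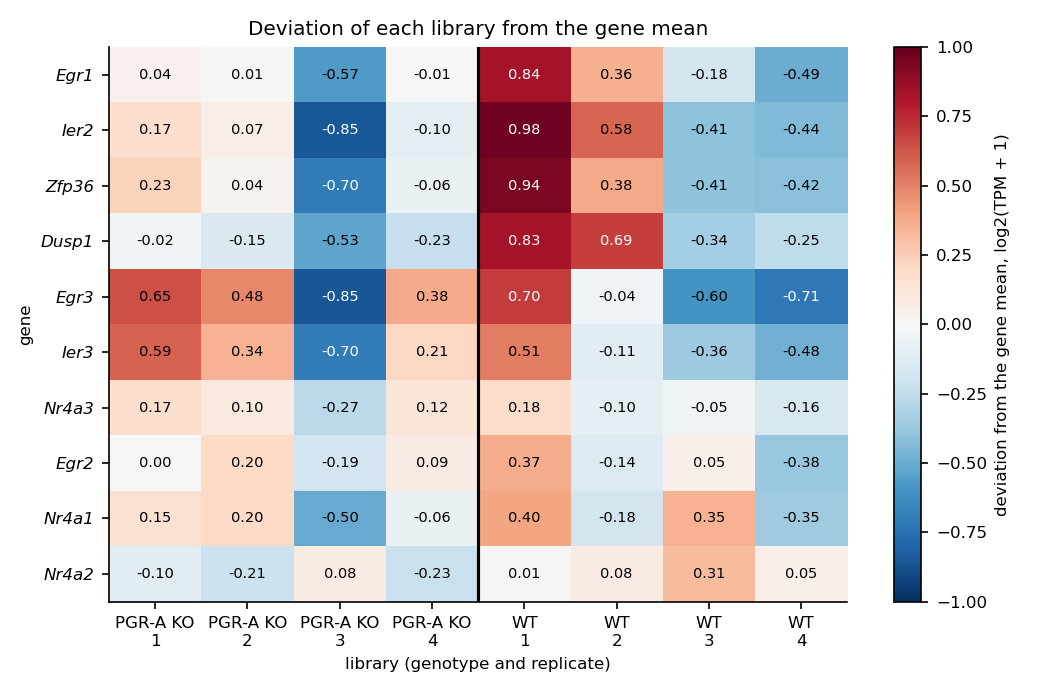
Deviation of each library (columns, PGR-A KO left of the line) from the mean of each member (rows), in log2(TPM + 1); red is above and blue below the mean. In the top 4 rows WT replicates 1 and 2 are the high libraries; in Egr3 and Ier3 the high ones are PGR-A KO replicates 1, 2 and 4 and the first of WT, while WT replicate 2 lies at -0.042 and -0.11.

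Of the 45 pairs of members, 36 had a positive Pearson r over the 8 libraries and 9 a negative one, and the 9 were all pairs with Nr4a2. In an exact permutation test adjusted over the 45 pairs, 11 passed by Pearson r and 14 by Spearman rho. Of the pairs with Nr4a2, a gene near the detection filter, 0 passed by either, and their r ran from -0.69 to -0.0096. An r at least as high as that of the lowest of these 11 was found in 4.10% of all pairs of tested genes. The first principal component of all tested genes, which held 34.9% of their variance, scored 20.7, 10.6, -25.8 and 16.4 in PGR-A KO replicates 1 to 4 and 21.2, -3.55, -20.9 and -18.5 in WT replicates 1 to 4. The libraries high and low on it were thus those high and low in Egr3 and Ier3; its part in the members' values was not tested. Egr1, Ier2 and Zfp36 ranked the 8 libraries in the same order, with a Spearman rho of 1.00 in each pair (exact permutation p = 4.96e-05, adjusted 0.000744). Their Pearson r was 0.97 for Egr1 and Ier2, 0.97 for Egr1 and Zfp36 and 0.99 for Ier2 and Zfp36 (exact permutation p = 2.48e-05 each, the smallest 8 libraries can give, adjusted 0.000372). Without the 2 libraries farthest from the median, PGR-A KO replicate 3 and WT replicate 1, these r were 0.93, 0.91 and 0.98.

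Egr3, Ier3 and Nr4a3 were also close to each other over all 8 libraries. Pearson r was 0.99 for Egr3 and Ier3 (rho 0.98, exact permutation p = 4.96e-05, adjusted 0.000372), 0.96 for Nr4a3 and Ier3 (rho 0.93, adjusted 0.00303) and 0.94 for Egr3 and Nr4a3 (rho 0.95, adjusted 0.00657). With WT replicate 4 and PGR-A KO replicate 3 left out, the libraries farthest from the median of both Egr3 and Nr4a3, these r were 0.98, 0.91 and 0.87. Egr2 and Nr4a1 passed at 0.84 (rho 0.86, exact permutation p = 0.00878, adjusted 0.0395) and Egr3 and Zfp36 at 0.82 (rho 0.86, p = 0.0119, adjusted 0.0486). Without the 2 farthest libraries neither passed: r was 0.78 over 6 libraries for Egr2 and Nr4a1 (permutation p = 0.0778) and 0.65 for Egr3 and Zfp36 (permutation p = 0.175). For Egr3 and Zfp36, r was 0.95 with the genotype means removed and 0.96 without WT replicates 1 and 2 (exact permutation p = 0.00417, adjusted 0.0134). The value without WT replicates 1 and 2 rests on a split of the libraries described below.

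The separation of these groups changed with the libraries used. Of all 45 pairs of members, 11 passed over 8 libraries, 21 without WT replicate 2 alone and 9 without WT replicate 1 alone. The share over all pairs of tested genes was not computed with libraries left out. The change in these counts can therefore not be read as particular to the members. WT replicate 2 deviated from the gene mean by 0.36 in Egr1, 0.58 in Ier2 and 0.38 in Zfp36. In Egr3, Ier3 and Nr4a3 it deviated by -0.042, -0.11 and -0.098. Of the 9 pairs that join Egr1, Ier2 or Zfp36 to Egr3, Ier3 or Nr4a3, 1 passed over 8 libraries, with r from 0.67 to 0.82. With WT replicates 1 and 2 left out, libraries picked by their values, all 9 passed the exact permutation test adjusted over the 45 pairs, with r from 0.92 to 0.99. With the genotype means removed, r was 0.79 to 0.95 over all 8 libraries.

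Dusp1 passed in its pairs with Ier2, Zfp36 and Egr1, but since WT replicates 1 and 2 stood apart in it, its relations are given over the other 6 libraries. There Pearson r was 0.96 with Ier2 (exact permutation p = 0.00278, adjusted over the 45 pairs 0.0125), 0.95 with Zfp36 (p = 0.00278, adjusted 0.0125) and 0.78 with Egr1 (p = 0.0611, adjusted 0.125). It was also 0.90 with Ier3 and 0.84 with Egr3, both with an exact permutation p of 0.00833 and an adjusted p of 0.0197, and 0.87 with Nr4a3 (exact permutation p = 0.0181, adjusted 0.0406). No technical batch is given in the labels, so no within-batch value could be computed. With the genotype means removed, the 36 pairs without Nr4a2 kept a positive r, from 0.34 to 0.99.

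**Figure D4:**
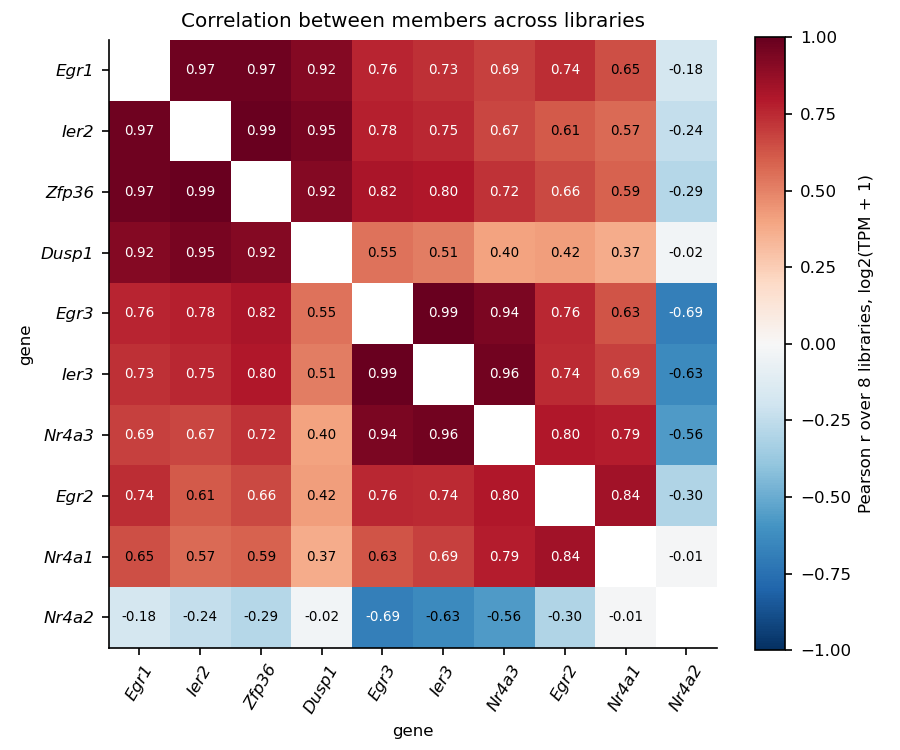
Pearson r between members over all 8 libraries in log2(TPM + 1), each cell a pair of genes. Egr1, Ier2, Zfp36 and Dusp1 form a block at the top left (0.92 to 0.99) and Egr3, Ier3 and Nr4a3 a block in the middle (0.94 to 0.99). The r of Nr4a2 with the other members run from -0.69 to -0.0096, and 0 of them passed. The values for Dusp1 include WT replicates 1 and 2, which stand apart.

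Ratios between members were compared within each library. The ratio of Egr3 to Ier2 was 0.263, 0.251, 0.176 and 0.262 in PGR-A KO replicates 1 to 4, against 0.155, 0.119, 0.157 and 0.147 in WT. All 4 PGR-A KO libraries lay above all 4 WT libraries, including PGR-A KO replicate 3. The ratio of Ier2 to Ier3 was 0.643, 0.708, 0.773 and 0.695 in PGR-A KO, against 1.19, 1.40, 0.832 and 0.885 in WT, and the ratio of Egr3 to Zfp36 was 0.323, 0.329, 0.2044 and 0.328 in PGR-A KO, against 0.2041, 0.176, 0.202 and 0.186 in WT. Groups did not overlap in these 3 of 45 ratios (6.67%), against 4.19% of ratios over all pairs of tested genes above 0 TPM in every library. In the ratio of Egr3 to Zfp36 the gap lay between 0.2044 in PGR-A KO replicate 3 and 0.2041 in WT replicate 1. Each of the 3 gave 0.0286 in the exact permutation test, the least this design allows. Adjusted over the 45 ratios, which were examined after the patterns had been seen, the lowest p was 0.367 and 0 passed.

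Fos, Fosb and Jun, AP-1 genes that respond in the same first wave, stood apart in WT replicates 1 and 2. Fos had 27.8, 29.8, 25.4 and 27.2 TPM in PGR-A KO, against 112, 101, 32.1 and 31.0 TPM in WT. Fosb had 1.02, 1.17, 1.02 and 0.866 TPM in PGR-A KO, against 10.1, 10.5, 1.26 and 0.885 TPM in WT. Jun had 41.1, 39.4, 24.0 and 29.9 TPM in PGR-A KO, against 117, 103, 36.7 and 35.1 TPM in WT. Junb, at 86.2, 79.0, 39.0 and 71.4 TPM in PGR-A KO and 140, 110, 52.2 and 48.7 TPM in WT, had its highest values there too. Not all AP-1 genes did so in both libraries. Fosl1, Jund and Atf3 were highest in WT replicate 1, at 17.7, 223 and 8.19 TPM. They had 13.5, 186 and 6.40 TPM in PGR-A KO replicate 1, against 10.01, 174 and 4.66 TPM in WT replicate 2. Fosl2 was highest in WT replicates 1 and 2, at 104 and 128 TPM, against 100 TPM in PGR-A KO replicate 1. None passed limma. The log2 change of Fos was -1.05 (SE 0.41, limma adjusted p = 0.783). It was -0.19 without WT replicates 1 and 2, its highest libraries, a choice that shrinks the difference by construction. The groups of Fos did not overlap, as in 3.42% of all genes tested, with at most 29.8 TPM in PGR-A KO and at least 31.0 TPM in WT.

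**Figure D5:**
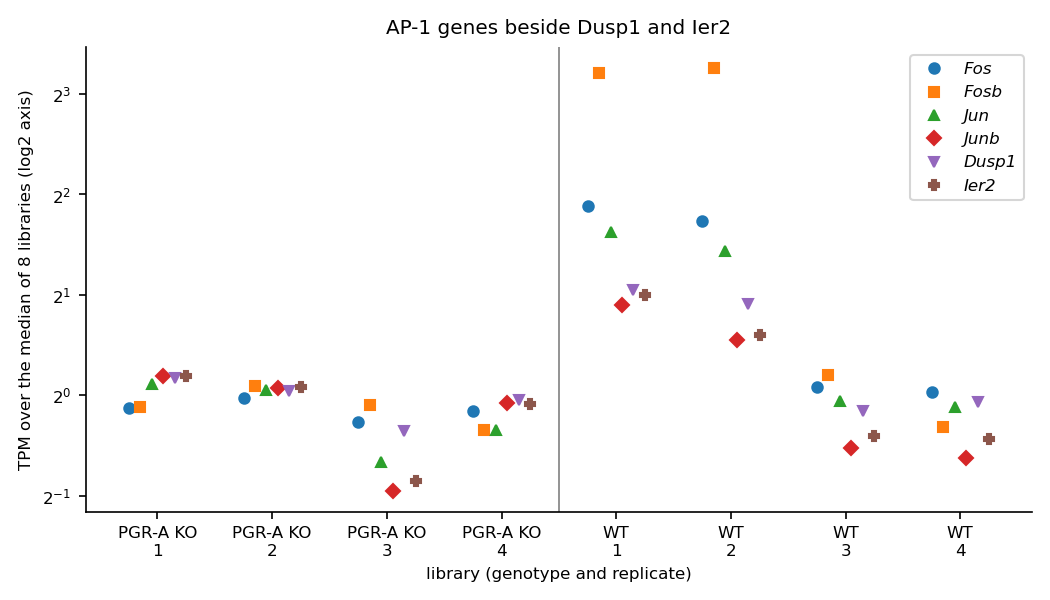
TPM of Fos, Fosb, Jun and Junb beside the members Dusp1 and Ier2 in each library (x axis, PGR-A KO left of the line), divided by the gene's median over the 8 libraries, on a log2 axis. WT replicates 1 and 2 are high in all 6 genes; the other 6 libraries lie near the median for Fos, and PGR-A KO replicate 3 is the lowest in Ier2, Junb, Dusp1 and Jun.

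The same 2 libraries were high in the heat shock genes Hspa1a and Hspa1b, which encode inducible chaperones. Hspa1b had 11.5, 10.2, 8.27 and 8.26 TPM in PGR-A KO, against 40.1, 36.2, 11.7 and 23.8 TPM in WT. Its groups did not overlap, while limma gave a log2 difference of -1.33 (SE 0.33, adjusted p = 0.570). Hspa1a had 5.16, 4.02, 2.87 and 2.65 TPM in PGR-A KO, against 24.2, 20.4, 3.64 and 9.73 TPM in WT. This did not extend to both libraries in all heat shock genes. In Dnajb1, Hsph1, Hspa8 and Hsp90aa1, WT replicate 2 was the lowest of the 8 libraries, at 30.8, 82.5, 1739 and 401 TPM. WT replicate 1 was the highest in Dnajb1, Hsph1 and Hspa8, at 41.2, 121 and 2294 TPM, but not in Hsp90aa1. In Hspe1, WT replicate 2 was the highest, at 337 TPM, and WT replicate 1 the lowest, at 259 TPM. Hspb1 was highest in WT replicate 1, at 46.1 TPM. The groups of Hspb1 did not overlap, with a log2 difference of -0.32 (limma adjusted p = 0.774). Endothelial markers had their highest sums in WT replicates 1 and 2, at 28.7, 28.9, 16.5 and 22.8 TPM in PGR-A KO, against 37.2, 42.8, 23.2 and 21.3 TPM in WT; 0 of 6 tested markers passed and none of 8 was at 0 throughout. Macrophage markers summed to 71.5, 64.5, 129 and 60.2 TPM in PGR-A KO, against 93.5, 105, 103 and 132 TPM in WT. They were highest in WT replicate 4 and PGR-A KO replicate 3, which were the lowest libraries of Egr3; 0 of 10 tested macrophage markers passed. The part of these markers in the members' values was not tested.

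Genes around the members gave no call either. Of 103 genes in 8 lists of relatives, upstream factors, targets and other early genes, 96 were tested and 0 passed in either direction; at an unadjusted p under 0.05 there were 3 higher and 9 lower in PGR-A KO, against 0.974% and 5.33% of all genes. Among 33 other immediate early genes, PGR-A KO means were higher for 11 and lower for 22, with a median log2 change of -0.10. Of all 14472 genes tested, 6169 were higher and 8303 lower, which also stands beside the counts of direction below. Gadd45g, a growth arrest and DNA damage gene, had the lowest p, with 11.1 ± 1.25 TPM in PGR-A KO and 16.8 ± 1.87 TPM in WT (SD, n = 4 each; limma adjusted p = 0.402). Of the 9 other DUSP genes, 7 stood higher and 2 lower on average in PGR-A KO (lowest p for Dusp10, limma adjusted p = 0.783). Of 6 tested relatives and cofactors of ZFP36, EGR and IER, 3 were on each side (Zfp36l2, limma adjusted p = 0.721), and Egr4 was below the filter.

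Upstream factors of the SRF, TCF and CREB classes had 4 higher and 7 lower means (Mrtfb, limma adjusted p = 0.810). Srf itself, which binds the CArG box, had 57.6 ± 5.01 TPM in PGR-A KO and 58.2 ± 8.70 TPM in WT (SD, n = 4 each; named after its values were seen). Receptors, kinases and EGF-like factors had 9 higher and 7 lower (Adcyap1, which encodes the peptide PACAP, limma adjusted p = 0.721). NR4A partners and steroid genes had 4 higher and 3 lower (Rxrb, limma adjusted p = 0.810), and of the 6 tested transcripts known as ZFP36 targets 3 were on each side (Lif, limma adjusted p = 0.793). Of 8 heat shock genes 3 had higher and 5 lower means.

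The genes most like Egr1 over the 8 libraries, among 10309 with a mean of at least 5 TPM, were Pcf11, Ppp2r5e and Chuk (Pearson r 0.99, 0.99 and 0.98). Those most like Nr4a1 were Golga3, Ubap2l and Abcf1 (0.99, 0.97 and 0.97), and those most like Dusp1 were Jun, Pip5k1b and Pmm2 (0.99, 0.98 and 0.98), the values for Dusp1 including WT replicates 1 and 2, which stand apart. An r of 0.9 or more with Egr3 was found for 8.21% of the ranked genes, with Ier3 for 9.25% and with Nr4a3 for 7.13%, against 1.75% with Egr1, 2.03% with Ier2 and 0.640% with Dusp1. These r describe 8 shared libraries and carry no test.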

How the data were processed

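The authors deposited one table of TPM per gene symbol, in which each library sums to between 994519 and 997022. Per the submitters' processing notes, FastQC, Salmon, limma and edgeR were used with build mm10; versions, annotation and the summing of transcripts to genes are not stated in what was used here. TPM keep no depth, so no counting interval is given. Groups came from sample titles. The unit of replication is a pool of mice, so p-values reflect differences among pools. Genes reaching 1 TPM in 4 or more of the 8 libraries (14472) entered limma 3.58.1 (R 4.3.3, with trend, no covariates) on the log2 scale with a pseudocount of 1, and 2-sided p were adjusted by Benjamini-Hochberg over all of them, with a threshold of 0.05. Single values were compared by exact 2-sided permutation over 70 assignments, whose smallest p is 0.0286. The fit was tested on simulated data. Promoters are from RefSeq (GRCm38.p6), and gene structure and untranslated regions from GENCODE M21. Alternatives were other pseudocounts, filters, unweighted TMM and quantile scaling, other empirical Bayes settings, array weights, a replicate block, each library left out, and 2 fits of 6 libraries added after the values were seen. The members and lists were chosen with earlier results of these data known. Named besides the members were, for each list, the gene with the lowest p where none passed, the AP-1 genes Fos, Fosb, Jun and Junb, the 3 genes most like each of Egr1, Nr4a1 and Dusp1, and the most abundant marker of a cell type. Pgr, Srf, Egr4, Fosl1, Fosl2, Jund, Atf3 and the heat shock genes other than Hspa1b are outside this rule and were named after their values were seen. Lists of markers of other cell types were summed per library, and those not described had 0 markers past the threshold.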

Additional observations from a re-analysis of the deposited data

Results flagged for a closer look

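Among the 20 groups of 4 libraries formed by the 10 members and 2 genotypes, 1 held a library far from the other 3, where chance gives about 1. This was Egr1 in PGR-A KO replicate 3, at 75.5 TPM, below the other PGR-A KO libraries at 112 to 116 TPM.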

How the results depend on the processing

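The count of members past the threshold was 0 in all alternatives but one. It was 2 (Egr3 and Ier3, both higher in PGR-A KO) with WT replicate 1 and PGR-A KO replicate 3 left out, a fit chosen after the data were seen with libraries picked by their values; there 16 listed genes and 1131 of all genes passed. The 2 genes past the threshold over all genes became 16 with array weights, 1 with a pseudocount of 5, 0 without WT replicates 1 and 2 (also picked by their values) and 0 to 6 with a library left out. Members with an exact permutation p under 0.05 numbered 0 to 1 with a library left out. The 11 correlated pairs became 9 to 21 with a library left out, 21 being without WT replicate 2, 6 without WT replicate 1 and PGR-A KO replicate 3, and 20 without WT replicates 1 and 2. For these counts no share over all pairs of tested genes was computed.
Directions turned, with no call, in these fits. Without WT replicate 1 and PGR-A KO replicate 3 the log2 change was 0.12 for Egr1, 0.16 for Nr4a1, 0.14 for Ier2 and 0.22 for Zfp36. Without WT replicates 1 and 2 it was 0.21 for Egr1, 0.25 for Ier2, 0.061 for Dusp1 and 0.29 for Zfp36. With array weights it was 0.13 for Egr1, 0.077 for Nr4a1, 0.17 for Ier2 and 0.23 for Zfp36. With a library left out it lay between -0.068 (without WT replicate 4) and 0.18 for Egr2, between -0.24 and 0.042 (without PGR-A KO replicate 3) for Nr4a1, and between -0.43 and 0.024 (without WT replicate 1) for Zfp36. The causes were not tested. Sizes moved with 1 library left out even where directions held: Egr1 lay between -0.47 and -0.023 (without WT replicate 1), Ier2 between -0.56 and -0.089 (without WT replicate 1), Egr3 between 0.14 (without WT replicate 4) and 0.67 (without PGR-A KO replicate 3), Ier3 between 0.061 (without PGR-A KO replicate 1) and 0.49 (without PGR-A KO replicate 3), Nr4a3 between 0.019 (without WT replicate 4) and 0.16 (without PGR-A KO replicate 3), and Dusp1 between -0.66 and -0.27 (without WT replicate 1). Egr2, Nr4a2 and Nr4a3 had no value where the filter removed them.
Same-numbered libraries of both genotypes deviated together in some replicates and not in others (r of 0.36, -0.11, 0.39 and -0.29 across genes). The replicate numbers were not taken to pair them in the main fit, and whether they do is not known. With the replicate block 2 genes and 0 members passed, and 1 member, Dusp1, had an unadjusted limma p under 0.05 (0.0232, adjusted 0.441). So did 1368 of all genes, against 913 without the block. With array weights 3 members and 3591 of 14472 genes had an unadjusted limma p under 0.05. The members were Egr3 (log2 change 0.89, limma adjusted p = 0.0891), Ier3 (0.64, adjusted 0.105) and Nr4a2 (-0.29, adjusted 0.152).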
